A study of Mus musculus with 2 samples.

Results

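The genes described here encode the voltage-gated sodium and calcium channels. They are the protein-coding genes of GENCODE M21 on mm10 whose symbol is Scn with a number and a or b, or starts with Cacna1, Cacna2d, Cacnb or Cacng. Cacna1s, Cacnb1 and Cacng1, which encode the channel complex of skeletal muscle fibres, were left out by that definition. It gave 37 genes of the 21911 protein-coding genes: 10 sodium channel pore subunits, 4 sodium channel beta subunits, 9 calcium channel pore subunits, 4 alpha2delta subunits, 3 calcium channel beta subunits and 7 gamma subunits. Open chromatin was measured by DNase-seq, in which the enzyme DNase I cuts accessible DNA and peaks mark where the cuts gather. The tissue was the gastrocnemius, a calf muscle, of B6CASTF1/J females aged 10 days, F1 hybrids of a C57BL/6J and a CAST/EiJ parent, with no treatment in the labels. The 2 libraries form 1 group. The labels number them as biological replicates 1 and 2, and each came from its own pool of 3 females. With a single group there was no contrast between conditions and no test. Each value is given per library and read against the same value over all protein-coding genes, and the difference between the libraries is the only measure of replicate spread.

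Voltage-gated sodium channels carry the inward current that starts and spreads the action potential in nerve and muscle, and voltage-gated calcium channels turn that depolarisation into calcium entry for contraction, transmitter release and gene regulation. Each channel is built around a large pore subunit, and smaller partners set its trafficking and gating: beta subunits for sodium channels, and alpha2delta, beta and, in some channels, gamma subunits for calcium channels. In mature skeletal muscle the action potential depends on Scn4a, and excitation-contraction coupling on the complex of Cacna1s with Cacna2d1, Cacnb1 and Cacng1. Most other family members are known from neurons, heart, smooth muscle or sensory organs.

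The libraries differed in the number of peaks. Replicate 1 held 114758 peaks and replicate 2 held 26804, covering 21.6 and 6.72 Mb, so replicate 1 was also limited to its 26804 tallest peaks, called here the equal-number list. Peak height is the authors' signal normalised to read depth. Peaks within 1 kb of an annotated transcription start site (TSS) of a gene, whichever of its starts that is, are called its promoter peaks, and a shared peak is a peak of replicate 1 that overlapped one of replicate 2 by at least 50% of either. Against the tissue label, 5 of 10 skeletal muscle markers had a promoter peak in replicate 1, with heights from 0.841 to 14.7, and 3 of 10 in replicate 2, with heights from 1.22 to 5.02. Tnnt3, Tnnc2, Atp2a1 and Myh4 had none in either library. Neuronal markers had one more often, at 10 of 10 genes in replicate 1 (1.67 to 16.1) and 5 of 10 in replicate 2 (0.654 to 2.05), and Schwann cell markers at 5 of 10 in each. Over all genes 66.7% had one in replicate 1 and 51.4% in replicate 2, so 5 of 10 in replicate 2 was near that share. By mean count per gene, distal peaks, defined below, ordered differently in replicate 2 alone. Muscle markers had a mean of 2.20 and neuronal markers 1.70, against 0.826 over all genes. Most of the muscle peaks there were at Pvalb (7) and Tnnt3 (6), and Schwann cell markers had a mean of 1.90. In replicate 1 the muscle and neuronal means were 7.40 and 16.8, against 4.93. They were 1.50 and 5.50 in the equal-number list, against 1.02, and 1.20 and 1.40 for shared peaks, against 0.567. None of these means is corrected for the length of DNA searched. Of 10 cardiac markers 1, Ryr2, had a promoter peak in replicate 1 and 0 in replicate 2. The part that nerve and glia in the muscle play in the channel genes' peaks was not tested, and in a bulk tissue fewer open cells and less opening per cell cannot be told apart.

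Promoter peaks at the channel genes depended on the library. In replicate 1, 32 of the 37 genes (86.5%) had a promoter peak, where 66.7% of all protein-coding genes did. In the equal-number list 14 genes (37.8%) had one, where 49.6% of all genes did, though with the longer, looser peak lists this became 21 genes (56.8%), where 56.6% did. In replicate 2 the count was 12 (32.4%), where 51.4% of all genes had one. The channel genes thus stood above the background in the long list of replicate 1 and below it in both lists of 26804 peaks. These shares are not corrected for the number of starts, a median of 6 in channel genes against 3 in all genes. Per kb of promoter window, the median number of bases with an FDR (a corrected p-value) below 0.001 was 119 against 121 in replicate 1. It was 0 against 18.9 in replicate 2. A shared promoter peak was found at 10 channel genes (27.0%) and at 45.1% of all genes. The 10 were Cacna1a, Cacna1b, Cacna1g, Cacna2d1, Cacna2d2, Cacnb2, Cacnb3, Cacng2, Cacng3 and Cacng7, all of them calcium channel genes. Cacnb4 had a promoter peak in each library at places that did not overlap, so 11 channel genes (29.7%) had one in each library, overlapping or not, where 51.0% of all genes did. A promoter peak in replicate 1 alone was found at 21 channel genes (56.8%), where 15.7% of all genes had that pattern, and in replicate 2 alone at 1, Scn7a, where 0.461% of all genes did. Set against the equal-number list, 5 genes (13.5%) had a promoter peak in replicate 1 alone, where 5.25% of all genes did, and 3 (8.11%) in replicate 2 alone, where 7.08% did. No promoter peak was found in either library at Scn4a, Scn10a, Cacna1f and Cacng6.

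Where present, the promoter peaks of channel genes were low. The tallest promoter peak of each of the 32 genes in replicate 1 ranged from 0.495 to 13.0, with a median of 2.18, against a median of 6.30 over all genes with a promoter peak, and 6 of the 32 lay above that median. In replicate 2 the 12 genes ranged from 0.461 to 2.56 with a median of 1.07, against 2.03 over all genes, and 1 of the 12, Cacng2, lay above it. Cacna1b (13.0) and Cacna1a (11.9) were the tallest in replicate 1, and Cacng2 (2.56) in replicate 2. The lowest peak kept in the equal-number list had a height of 2.71. Cacna1c (3.66) was the lowest channel gene inside that list. The number of promoter peaks per gene did not order the same way in both libraries: genes with a promoter peak had on average 3.06 of them among the channels and 2.23 among all genes in replicate 1, and 1.50 and 1.73 in replicate 2. These averages are not corrected for the larger number of starts of channel genes.

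**Figure D1:**
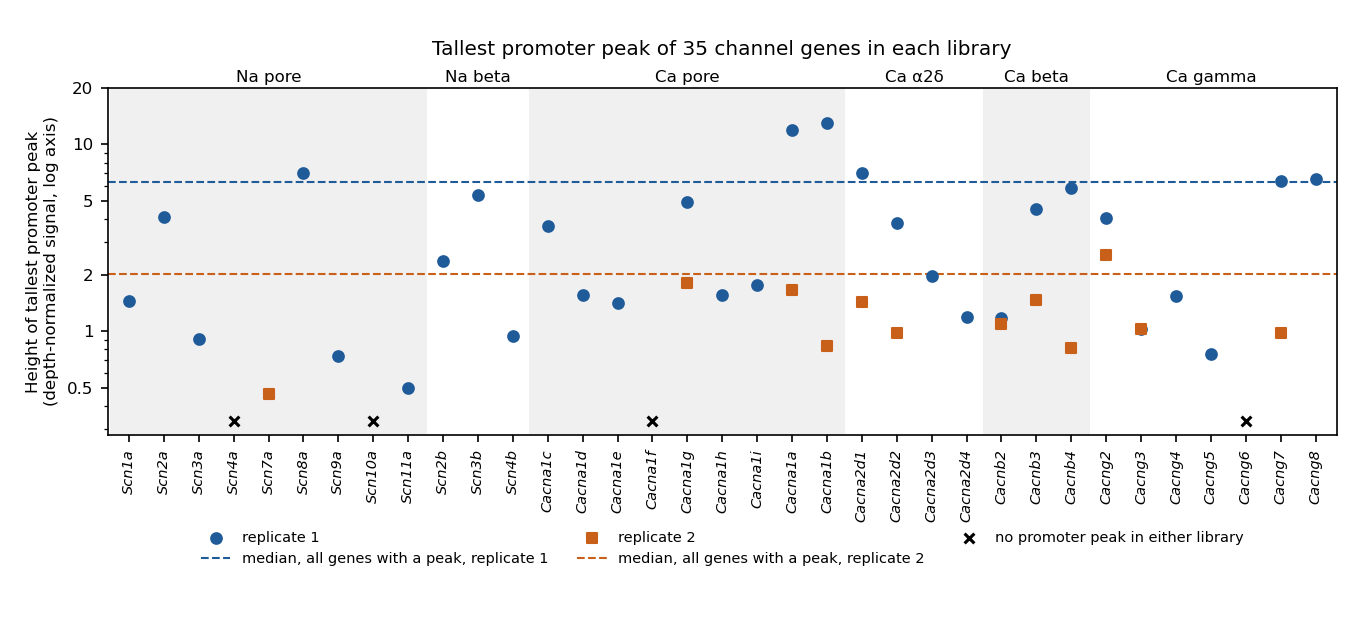
Height of the tallest promoter peak of 35 channel genes (log axis, depth-normalised signal) in replicate 1 (circles) and replicate 2 (squares), by subunit class, with the median over all genes with a promoter peak in each library as a dashed line. Of the 35 genes plotted, 6 lie above the line in replicate 1 and 1 in replicate 2, and 4 (crosses) have no promoter peak in either library.

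CpG-rich promoters are open in most tissues, so the counts were also read within classes of promoter CpG content. Windows ran from 250 bases before to 50 after each TSS, and each gene was represented by its window of highest observed-to-expected CpG ratio. The median of that ratio was 0.844 for channel genes against 0.695 for all genes, and the median GC content of those windows 67.3% against 58.3%. Channel genes have more starts, a median of 6 against 3, and a highest value taken over more windows tends to be higher. With all genes split into 3 equal classes, 18 channel genes fell in the high, 14 in the middle and 5 in the low class. In the high class 18 of 18 channel genes had a promoter peak in replicate 1, where 98.2% of all genes in the class did. At equal numbers of peaks this was 8 of 18, and in replicate 2 also 8 of 18, where 86.7% of the class had one in each case. In the middle class 13 of 14 had one in replicate 1 (84.0% of the class), 6 of 14 in the equal-number list (56.7%) and 3 of 14 in replicate 2 (61.4%). If each channel gene had the share of its class, 30.3 genes would have a promoter peak in replicate 1, 23.8 in the equal-number list and 24.5 in replicate 2, where 32, 14 and 12 did. With genes classed in this way, the shortfall in the lists of 26804 peaks was larger, not smaller. How far the larger number of starts raised the class of channel genes was not tested. High-class genes without a peak in replicate 2 included Scn8a, Cacna1c, Cacna1d and Cacna1i.

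**Figure D2:**
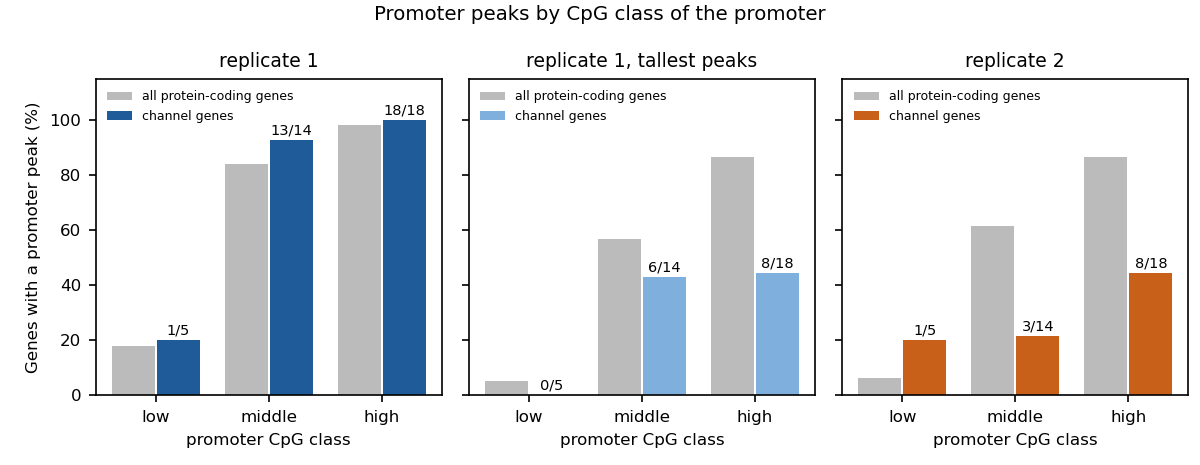
Share of genes with a promoter peak (percent, axis from 0) in the low, middle and high class of promoter CpG content, for all protein-coding genes (grey) and the channel genes (colour, with counts). In the high class the channel genes reach 18 of 18 in replicate 1 but 8 of 18 in the equal-number list and in replicate 2, where all genes reach 86.7%.

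Of the 10 sodium channel pore genes, 7 had a promoter peak in replicate 1, 2 in the equal-number list and 1 in replicate 2, and 0 had a shared one. Scn8a, a main channel of the axon initial segment and the nodes of Ranvier, was the tallest, with 7.05 in replicate 1 and no promoter peak in replicate 2. Its peaks of 7.05 and 5.75 both lay over annotated starts in the first 2 kb of the gene, and the lowest FDR within 1 kb of its starts was 9.59e-28 in replicate 1 and 2.03e-03 in replicate 2. Scn2a, a channel of central axons, had 5 promoter peaks up to 4.11 in replicate 1, the tallest at a start 47.9 kb inside the gene. Other brain and sensory channels were low in replicate 1: Scn1a reached 1.46, Scn3a 0.907, Scn9a 0.740 and Scn11a 0.495. None of the 7 genes had a promoter peak in replicate 2, and the equal-number list kept Scn8a and Scn2a.

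Scn4a, the adult skeletal muscle sodium channel, had no promoter peak in either library. The interval files also held no interval with an FDR of 0.05 or below within 1 kb of its starts. The peak nearest to its RefSeq start lay 6.55 kb away in replicate 1 (height 1.39) and 17.1 kb away in replicate 2 (height 2.48). The first of these was also the nearest distal peak of the gene, chr11:106355941-106356140, 2.65 kb upstream of the outermost GENCODE start, and it held an E-box CAGCTG, the core letters that myogenic factors such as MyoD bind. Scn4a had 5 distal peaks in replicate 1, from 0.704 to 2.11, and 0 in replicate 2. The replicate 2 peak 17.1 kb away was not counted as distal because it lay within 1 kb of a start of another gene. Of the windows from 250 bases before to 50 after its GENCODE starts, at least 1 held an E-box. The highest CpG ratio among those windows was 0.321. The RefSeq promoter of Scn4a (mm10, chr11:106349341-106349640, minus strand, 250 bases before to 50 after the start), printed because it is the muscle member and no peak covers it, held none of the 11 motifs searched and had a CpG ratio of 0.138. There is no motif to mark, so it has no capitals:
Scn4a promoter: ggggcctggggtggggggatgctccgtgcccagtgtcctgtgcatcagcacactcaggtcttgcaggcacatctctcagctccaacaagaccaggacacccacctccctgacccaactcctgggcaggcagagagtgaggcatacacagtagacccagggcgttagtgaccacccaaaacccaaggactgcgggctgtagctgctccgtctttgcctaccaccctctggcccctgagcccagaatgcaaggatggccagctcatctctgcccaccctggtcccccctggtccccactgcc

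Scn7a, an atypical sodium-sensing channel known from glia and Schwann cells, was the 1 channel gene with a promoter peak in replicate 2 alone. That peak, chr2:66784921-66784984, was 64 bases wide and 0.461 high, which is among the lowest of all genes in that library (percentile 0.235). In replicate 1 the nearest peak to its start lay 21.8 kb away with a height of 0.274. Scn10a, a channel of nociceptive sensory neurons, had no promoter peak in either library.

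All 4 sodium channel beta genes, whose products are cell-adhesion proteins bound to the pore, had a promoter peak in replicate 1 and 0 had one in replicate 2. Scn3b was the tallest with 5.38, a single peak over its first start, and its lowest FDR was 1.15e-64 in replicate 1 and 8.23e-04 in replicate 2. Scn2b had 2.38 and Scn4b 0.943. The equal-number list kept Scn3b alone of the 4. The sodium channel genes as a whole thus had 11 promoters with a peak in replicate 1 and 1, Scn7a, in replicate 2.

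The 9 calcium channel pore genes included the tallest promoter peaks of replicate 1, though not of replicate 2: 8 had one in replicate 1, 4 in the equal-number list and 3, all shared, in replicate 2. Cacna1a and Cacna1b encode the P/Q-type and N-type channels of presynaptic terminals, and Cacna1g a low-voltage T-type channel. Cacna1g had a peak of 4.93 in replicate 1 and 1.81 in replicate 2 at its first start. Cacna1b had 13.0 in replicate 1 over its first start, a place with no peak in replicate 2. Its shared peak, 847 bases downstream of another start, was 3.51 high in replicate 1 and 0.836 in replicate 2. Cacna1a had 7 promoter peaks in replicate 1 and 4 in replicate 2, and 3 were shared. Its tallest, 11.9 in replicate 1 against 1.18 in replicate 2, was at the last of its 11 annotated starts, 251 kb from the first, near the 3′ end of the gene. No peak in either library lay within 1 kb of the first start of Cacna1a. Others of its promoter peaks were at starts 26.9 to 27.3 kb inside the gene. Among them were a peak of 1.83 over a start in replicate 1 and a shared peak of 2.71 and 0.868.

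The bases covered by a peak in both libraries are shown for 5 genes, in each for its tallest shared promoter peak without UTR bases. They are the mm10 reference, which is not the sequence of the CAST/EiJ allele of these hybrid mice, and capitals mark motif matches. In Cacna1a, chr8:84639519-84639569 (plus strand, the shared part of the peak at its last start) held a CTCF match. In Cacna1g, chr11:94474340-94474540 (minus strand) held E-boxes CAGCTG and the Sp/KLF core GGGCGG, on either strand. In Cacnb3, chr15:98631641-98631740 (plus strand), and Cacna1b, chr2:24762141-24762200 (minus strand), there was no match. In Cacng7, chr7:3332111-3332140 (plus strand) held an E-box:
Cacna1a last start: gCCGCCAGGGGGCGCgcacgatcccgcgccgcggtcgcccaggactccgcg
Cacna1g first start: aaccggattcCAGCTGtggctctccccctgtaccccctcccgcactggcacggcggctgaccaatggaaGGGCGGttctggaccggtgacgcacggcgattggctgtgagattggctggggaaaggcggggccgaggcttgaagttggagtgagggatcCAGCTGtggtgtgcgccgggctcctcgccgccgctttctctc
Cacnb3: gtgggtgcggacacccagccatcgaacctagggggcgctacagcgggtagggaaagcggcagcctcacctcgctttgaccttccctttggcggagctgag
Cacna1b: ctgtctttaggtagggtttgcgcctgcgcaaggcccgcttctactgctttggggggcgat
Cacng7: ttcttCAGCTGcccagacccccaggctccg

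The other calcium pore genes had promoter peaks in replicate 1 alone or none. Cacna1c, the L-type channel of heart and smooth muscle, had 12 promoter peaks in replicate 1, the most of any channel gene, spread over several of its 14 starts. The tallest, 3.66, lay at a start 116 kb inside the gene. Cacna1d, an L-type channel of the sinoatrial node and endocrine cells, reached 1.56, Cacna1e, the R-type channel, 1.41, and the T-type channels Cacna1h and Cacna1i 1.56 and 1.78. Cacna1f, the retinal L-type channel, had no promoter peak in either library. Cacna1s, the muscle channel that the definition leaves out, had a promoter peak of 3.16 in replicate 1 and none in replicate 2, so its pattern was that of most genes in its family.

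The alpha2delta subunits are extracellular proteins that raise the number of channels at the surface, and Cacna2d1 is the form in the skeletal muscle complex. All 4 genes had a promoter peak in replicate 1 and 2 had a shared one. Cacna2d1 had a tallest promoter peak of 7.01 in replicate 1, at a start 91.0 kb inside the gene, and of 1.43 in replicate 2, by its first starts. The shared peak at those first starts was 2.09 in replicate 1. Cacna2d2 had a shared peak over its first start of 3.78 in replicate 1 and 0.986 in replicate 2. Cacna2d3, a neuronal form, and Cacna2d4, a retinal form, had 1.98 and 1.19 in replicate 1 and none in replicate 2, and the peak of Cacna2d4 also lay within 1 kb of a start of Lrtm2, a gene nested in it.

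The calcium channel beta subunits sit on the inner side of the pore and bring it to the membrane. All 3 described here had a promoter peak in both libraries, the only class in which every gene did, though the class is small. Cacnb3 had 4.50 in replicate 1 and 1.47 in replicate 2, at different starts, and its shared peak had 2.14 and 1.47. Cacnb2, the cardiac form, had nearly equal heights in its shared peak, 1.18 and 1.10. Cacnb4, a neuronal form, had 5.87 in replicate 1 and 0.815 in replicate 2, without overlap. Cacnb1, the muscle form that the definition leaves out, was like Cacnb4 in having a promoter peak in each library, 3.91 and 1.50, but no shared one.

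The gamma subunits include Cacng6, known from skeletal muscle, and a group (Cacng2, Cacng3, Cacng4, Cacng5, Cacng7 and Cacng8) known mainly as auxiliary subunits of AMPA-type glutamate receptors in the brain. Of the 7 genes, 6 had a promoter peak in replicate 1, 3 in the equal-number list and 3, all shared, in replicate 2. Cacng2 had a peak of 4.03 in replicate 1 and 2.56 in replicate 2 over its only start. That height was at percentile 35.3 among genes with a promoter peak in replicate 1 and 70.5 in replicate 2, the highest rank of any channel gene there. Cacng3 had 1.03 in both libraries. Cacng7 had tallest peaks of 6.35 and 0.986, whose overlap was too small to count as shared, and its shared peak had 6.35 and 0.761. Cacng8 reached 6.50 in replicate 1 with none in replicate 2, Cacng4 1.55 and Cacng5 0.758. Cacng6 and the left-out Cacng1, the gamma subunit of the muscle complex, had none in either library.

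The promoter peaks of Cacng2 and Cacng3 repeat a short sequence. It was noticed in the bases of the shared peaks of channel genes and then searched for. The choice of its letters, CAGCACC with GG after a gap of 2 bases, thus followed sight of the data, and no weight rests on it as a test. These letters are the left part of RE1, the site bound by REST, a repressor of neuronal genes outside the nervous system. On either strand, 3 of the 12 shared promoter peaks of channel genes (25%) held it, where 1.12% of all 12365 shared promoter peaks did. They were at Cacng2, Cacng3 and Cacna1b, and the Cacna1b site lay outside the overlapping peak of replicate 2. Among all promoter peaks of channel genes, 4 of 98 in replicate 1 held it (4.08%), where 1.03% of all did. In replicate 2 it was 3 of 18 (16.7%), where 1.33% did. Cacng2 held 3 matches and Cacng3 held 2, and 9 of all shared promoter peaks (0.0728%) held 2 or more. In windows of 300 bases on each side of the starts, 3 of 37 channel genes had it, against 4.34% of all genes. In distal peaks it was found in 3 of 424 in replicate 1, where 0.586% of all had it, and in 3 of 45 in replicate 2, where 1.22% did. All matches in peaks of channel genes are shown as 21 bases each on the mm10 reference, capitals marking the letters searched: Cacng2 at chr15:78119831-78119851, chr15:78119943-78119963 and chr15:78119997-78120017 (minus strand), Cacng3 at chr7:122670946-122670966 and chr7:122671018-122671038 with Cacna1b at chr2:24762083-24762103, Cacnb2 at chr2:14605142-14605162 and Scn8a at chr15:100983971-100983991 (plus strand), Cacng7 at chr7:3331678-3331698, Cacna1a at chr8:84454743-84454763, Cacna1h at chr17:25400634-25400654 and Scn10a at chr9:119706898-119706918 (minus strand):
Cacng2, most downstream: ttCAGCACCacGGcgatgctg
Cacng2, middle: tcCAGCACCgcGGcgatgctg
Cacng2, nearest the start: ttCAGCACCacGGcgacgcag
Cacng3, upstream: ttCAGCACCacGGacctccaa
Cacng3, downstream: ctCAGCACCacGGacctcagc
Cacna1b, promoter: gtCAGCACCacGGacagctgc
Cacnb2, promoter: ctCAGCACCtgGGgcgctgtg
Cacng7, upstream: gaCAGCACCtgGGgagggggg
Cacna1a, intron: ttCAGCACCatGGccagcagc
Cacna1h, intron: ttCAGCACCacGGacagcgac
Scn10a, intron: ttCAGCACCacGGacagagca
Scn8a, distal: aaCAGCACCgtGGactgcaat

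Footprints, short stretches that the authors marked as protected from cutting, lay on some of these sites. They are common: 85.8% of all promoter peaks in replicate 1 and 81.2% in replicate 2 held at least 1. How often a footprint overlaps other stretches of this length was not tested, nor was binding of REST. In replicate 2 a footprint overlapped the site in Cacna1b, where that library had no peak, and the sites in Cacna1h and Cacna1a. It also overlapped the upstream site of Cacng3 and the first and the middle site of Cacng2 as listed. In replicate 1 a footprint overlapped the site in Cacna1a, that in Cacng7, both in Cacng3 and the last 2 of Cacng2 as listed. The sites in Scn10a, Scn8a and Cacnb2 had none in either library. Rest itself had promoter peaks in both libraries, up to 2.23 in replicate 1 and 1.50 in replicate 2.

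Distal peaks, defined as more than 1 kb from every protein-coding start and within 50 kb of a start of the gene, were frequent at the channel genes. In replicate 1 all 37 genes had at least 1, where 84.0% of all genes did. In the equal-number list 21 genes (56.8%) had one, where 44.3% of all genes did, and in replicate 2 it was 24 genes (64.9%), where 40.1% did. A shared distal peak was found at 23 genes (62.2%), where 35.4% of all genes had one. By share of genes, distal peaks thus lay above the background in every list, unlike promoter peaks. These shares are not corrected for the length of DNA searched, which was larger at channel genes. The channel genes had 424 different distal peaks in replicate 1, 81 in the equal-number list, 45 in replicate 2 and 40 shared.

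The numbers per gene depend on the length of DNA searched, because channel genes are long and have many starts. They had a median of 6 starts against 3 over all genes, and a median window of 155 kb against 103 kb. Counts per gene were 12.1 ± 10.3 (SD over 37 genes) in replicate 1, against 4.93 ± 5.11 over all genes, 2.22 against 1.02 in the equal-number list and 1.27 against 0.826 in replicate 2. Per Mb of window the means were 63.1 against 40.0 in replicate 1, 10.4 against 8.50 in the equal-number list, 7.30 against 7.06 in replicate 2 and 6.55 against 4.83 for shared peaks. The medians per Mb were 68.9 in replicate 1, also above that of all genes, 8.60 against 0 in the equal-number list and 4.06 against 0 in replicate 2. Per Mb the excess in the mean was thus smaller in every list and slight in replicate 2. The medians of 0 arose because most genes had no distal peak. Only 44.3% of all genes had one in the equal-number list and 40.1% in replicate 2. A count of 0 stays 0 when divided by window length. The medians in those lists are therefore not corrected for length and cannot show whether an excess remains.

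By count per gene, calcium pore genes carried more of these peaks than any other class. The counts were not divided by the length searched, which reached 501 kb at Cacna1c and 430 kb at Cacna1d, against a median of 155 kb. Per Mb of window, replicate 1 had 128 at Cacna1a and 83.8 at Cacna1c, but 110 at the gamma gene Cacng2. Classes were not ranked per Mb. The 9 calcium pore genes had 204 of the 446 assignments of a distal peak to a channel gene in replicate 1, a mean of 22.7, and 23 of 47 in replicate 2. The 4 alpha2delta genes had a mean of 18.8 in replicate 1 and 2.00 in replicate 2, the 7 gamma genes 8.71 and 0.857, the 4 sodium beta genes 7.50 and 1.25, the 3 calcium beta genes 6.00 and 0.667 and the 10 sodium pore genes 5.80 and 0.300. Cacna1c (42), Cacna1a (41), Cacna1d (30), Cacna2d3 (27) and Scn8a (25) had the most in replicate 1. In replicate 2 Cacna1a had 9, of which 7 had a start of Cacna1a as the nearest protein-coding start, and no other channel gene had more than 3. The sodium pore genes on chromosome 2 were at the other end: Scn1a, Scn2a and Scn3a had 2 each in replicate 1, Scn7a and Scn9a 1 each, and all 5 had 0 in replicate 2.

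**Figure D3:**
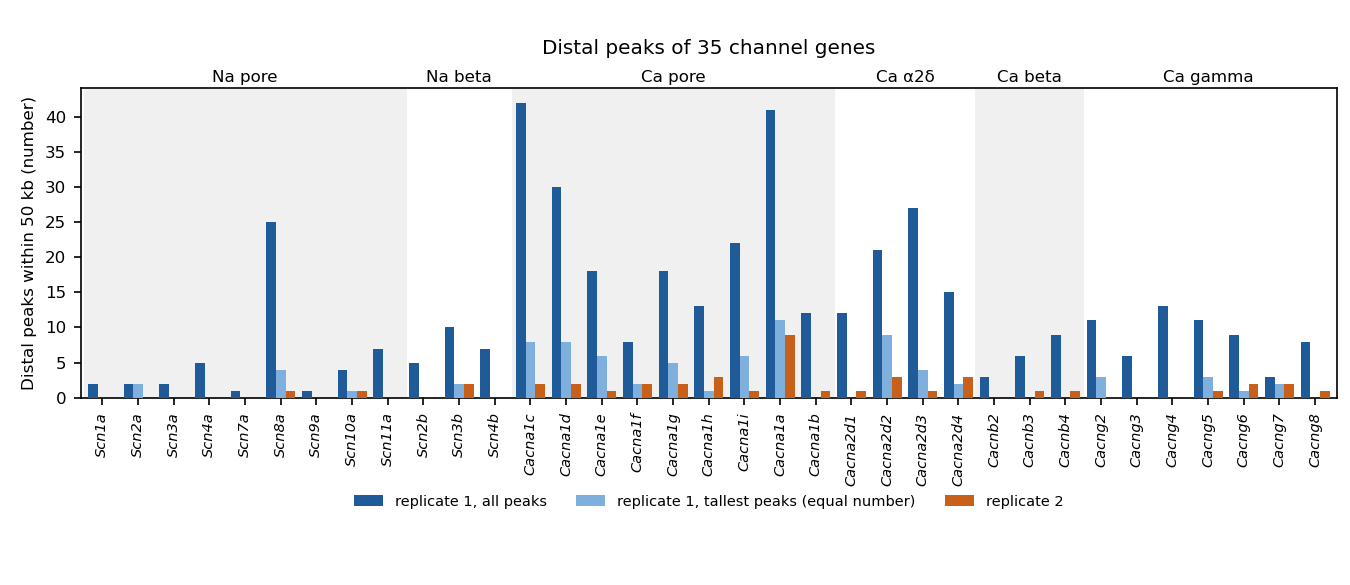
Number of distal peaks within 50 kb of a start of each of 35 channel genes (axis from 0) in replicate 1, in its equal-number list of tallest peaks and in replicate 2, by subunit class. Cacna1c and Cacna1a reach 42 and 41 in replicate 1, and Cacna1a with 9 is the highest in replicate 2.

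Many distal peaks lay inside the genes, and others near a neighbour. In replicate 1, 68.4% of the 424 lay within a channel gene, and a channel gene had the nearest protein-coding start for 79.0%. Of the 45 in replicate 2 these shares were 51.1% and 64.4%. The tallest in replicate 1 was 20.7 high in an intron of Cacna1a, 7.65 kb from a start, and had no peak in replicate 2. A shared peak of 14.0 in replicate 1 and 3.41 in replicate 2 lay 25 kb from Cacna1a but nearest to the immediate-early gene Ier2, and cannot be assigned to either gene from these data. Other tall ones in replicate 1 were 13.6 in an intron of Cacna1i, 10.0 in Cacna1d and 9.98 in Cacna2d3.

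**Figure D4:**
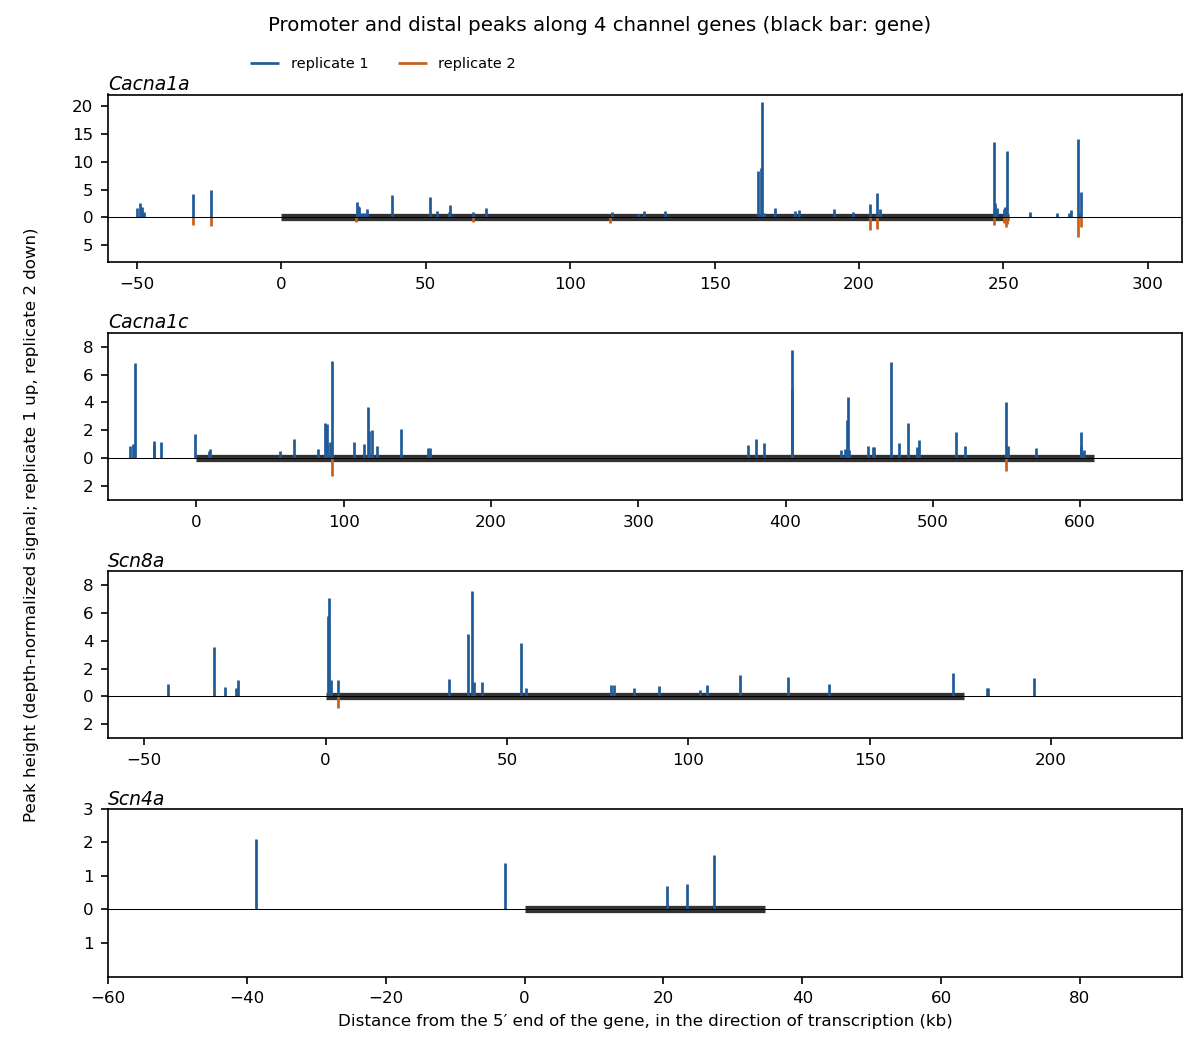
Promoter and distal peaks along Cacna1a, Cacna1c, Scn8a and Scn4a by distance from the 5′ end (kb), with height up for replicate 1 and down for replicate 2 on the same scale within a panel, the gene as a black bar. Peaks of replicate 2 appear at Cacna1a, at 2 places of Cacna1c and 1 of Scn8a, and at none along Scn4a, which has 5 low peaks in replicate 1.

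Shared distal peaks were found at genes with no promoter peak in replicate 2 as well. Cacna1c had shared intronic peaks of 6.98 in replicate 1 and 1.24 in replicate 2, and of 4.05 and 0.890. Cacna1d had intronic peaks of 7.08 and 0.943, and of 3.96 and 0.922. Scn8a had 1 shared distal peak, 1.15 and 0.825, in an intron 1.83 kb from a start. The shared peak of Cacna1e, 4.58 and 1.52, was also intronic. The 2 at Scn3b (8.77 against 1.50, and 1.11 against 1.63) were nearest to Gramd1b.

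Shared peaks were mostly taller in replicate 1. Over the 12 shared promoter peaks of channel genes the ratio of height in replicate 1 to that in replicate 2 ran from 1.00 to 10.1 with a median of 2.15, against 2.78 over all shared promoter peaks. Over the 40 shared distal peaks it ran from 0.551 to 7.50 with a median of 2.47, against 1.96 over all shared distal peaks, and 36 of 40 were above 1. The most even promoter peaks were those of Cacng3 and Cacnb2, and the most uneven were at Cacna1a and Cacng7. Among distal peaks the CTCF-matching one near Cacnb3, 2.18 in replicate 1 and 3.97 in replicate 2, was the lowest ratio.

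**Figure D5:**
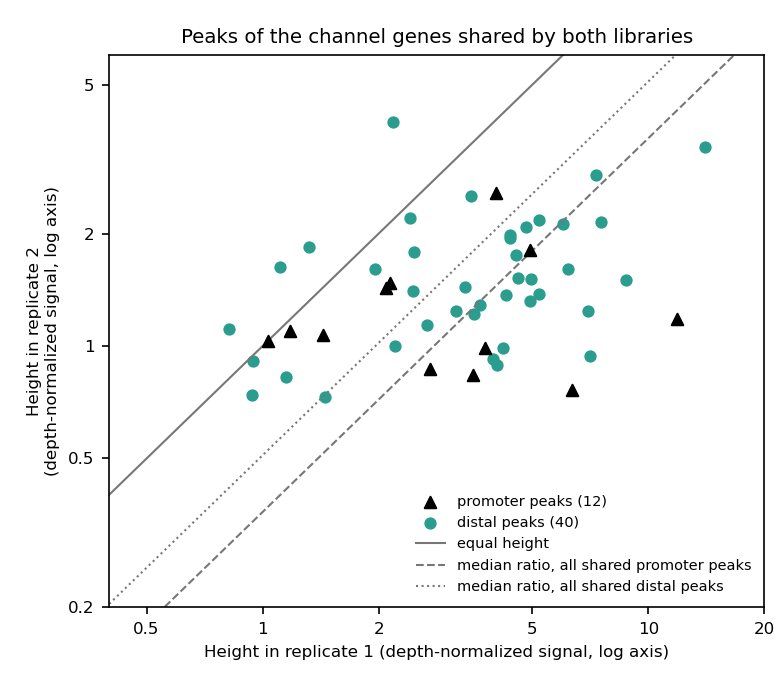
Height in replicate 2 against height in replicate 1 (both log axes, depth-normalised signal) for the 12 shared promoter peaks (triangles) and 40 shared distal peaks (circles) of channel genes, with a line of equal height and lines at the median ratio of all shared promoter and distal peaks. All but 4 distal peaks lie at or below the line of equal height.

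CTCF, the factor that anchors chromatin loops, had the most common long motif in the shared distal peaks. A match was found in 13 of the 40 (32.5%), where 24.4% of all 5220 shared distal peaks had one, and in 13 of 45 distal peaks of replicate 2 (28.9%), where 16.4% of all did. In the full list of replicate 1 the shares were 6.60% and 6.87%, so a higher share was seen only where few or tall peaks were kept (17.3% against 13.2% in the equal-number list). An E-box was found in 8 of the 40, where 19.3% of all shared distal peaks had one. The full RE1 consensus was found in 2 distal peaks of replicate 2 (4.44%, where 0.297% of all 7400 had it), in an intron of Cacna1a (shared) and of Scn10a (replicate 2 alone). The Cacna1h site printed above also spells the full consensus. It was not counted because the replicate 2 peak ends within it, at chr17:25400652. MEF2, a muscle transcription factor family, had 1 match in a shared distal peak, in an intron of Cacna2d4, and 0.230% of all shared distal peaks had one.

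These distal sequences are printed on the mm10 reference because they carry the long motifs in peaks of replicate 2; capitals mark the matches. They are Cacna1a at chr8:84454696-84454816 (plus strand, RE1, heights 0.937 and 0.740), Scn10a at chr9:119706876-119706956 (minus strand, RE1 and E-box, 0.729 in replicate 2), Cacna2d4 at chr6:119348401-119348540 (plus strand, MEF2, 6.00 and 2.12), Cacna1c at chr6:119104381-119104493 (minus strand, CTCF, 6.98 and 1.24) and Cacna2d2 at chr9:107463621-107463800 (plus strand, CTCF and an adjoining E-box, 4.37 and 1.95). All 5 are intronic:
Cacna1a: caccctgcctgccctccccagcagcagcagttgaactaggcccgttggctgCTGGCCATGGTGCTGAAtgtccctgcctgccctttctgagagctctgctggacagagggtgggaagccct
Scn10a: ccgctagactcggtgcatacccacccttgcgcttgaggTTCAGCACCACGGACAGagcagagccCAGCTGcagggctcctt
Cacna2d4: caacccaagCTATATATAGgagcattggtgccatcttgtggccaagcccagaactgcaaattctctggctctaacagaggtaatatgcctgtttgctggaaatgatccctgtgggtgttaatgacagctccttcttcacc
Cacna1c: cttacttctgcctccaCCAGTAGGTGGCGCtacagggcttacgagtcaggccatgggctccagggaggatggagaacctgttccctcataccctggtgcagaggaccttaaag
Cacna2d2: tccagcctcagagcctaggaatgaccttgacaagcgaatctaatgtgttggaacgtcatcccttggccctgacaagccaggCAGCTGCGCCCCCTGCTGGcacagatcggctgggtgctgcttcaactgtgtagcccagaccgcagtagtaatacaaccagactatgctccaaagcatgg

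At promoters the common motifs were compared in the start windows and in the peaks. In windows from 250 bases before to 50 after any start, the Sp/KLF core GGGCGG was found at 27 of 37 channel genes, where 56.7% of all genes had it, and the E-box at 20 of 37, where 36.0% did; channel genes have more starts and so more windows. In the promoter peaks of replicate 1 themselves the counts were 48 of 98 for Sp/KLF (50.2% of all promoter peaks) and 18 of 98 for the E-box (15.9%). In those of replicate 2 they were 5 of 18 for Sp/KLF, where 56.8% of all promoter peaks had it, and 2 of 18 for the E-box, where 16.1% did. The Sp/KLF core was thus near the background in the peaks of replicate 1 and below it in the few peaks of replicate 2. Neither the full RE1 consensus nor MEF2 was found in a promoter peak of a channel gene. CTCF matched 3 of 98 promoter peaks in replicate 1, where 2.47% of all did.

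Footprints per promoter peak were close to all genes in replicate 1 and fewer in replicate 2. The 98 promoter peaks of channel genes held a mean of 3.20 in replicate 1, against 3.11 over all promoter peaks. The 18 in replicate 2 held 1.44 against 3.28, and 77.8% held at least 1 against 81.2%. Those 18 peaks were also narrower and lower, with a median width of 166 bases against 280.

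Weak signal remained at some promoters without a peak. An interval with an FDR of 0.05 or below lay within 1 kb of a start at 33 channel genes in replicate 1 (71.8% of all genes) and at 21 in replicate 2 (60.9%). Of the 25 channel genes with no promoter peak in replicate 2, 9 had such an interval, where 19.4% of all genes without a promoter peak did. These counts are not corrected for the larger number of starts of channel genes, which widens the search. Among the 9 were Cacna1c, Cacna1h, Cacna2d3, Cacng6, Scn1a, Scn3b and Scn8a. Cacng6 alone also had one in replicate 1 without a peak there.

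Genes for proteins that work with these channels had promoter peaks more often than the channel genes in every list. Of 33 partner genes, among them ankyrins, FGF homologous factors, calmodulins, ryanodine receptors, junctophilins and CaM kinase subunits, 30 had a promoter peak in replicate 1, 17 in the equal-number list, 18 in replicate 2 and 15 a shared one. Over all genes the shares were 66.7%, 49.6%, 51.4% and 45.1%, so the partner genes lay above the background in the full list of replicate 1 and close to it in the other 3. The 15 included Ank2, Ank3, Fgf11, Fgf12, Fgf13, Nedd4l, Gem, Calm2, Calm3, Camk2b, Camk2d, Camk2g, Jph1 and Rest. The widely expressed calmodulin gene Calm3 was the tallest, with 24.9 in replicate 1 and 5.91 in replicate 2. Ryr1, the calcium release channel of skeletal muscle, had 1.46 in replicate 1 and none in replicate 2, and Stac3, a muscle adaptor of the calcium channel, had none in either library but 9 distal peaks in the equal-number list. Mean distal peaks per partner gene were 11.2 in replicate 1 and 1.39 in replicate 2, near the 12.1 and 1.27 of the channel genes.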

How the data were processed

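Per the labels, each of the 2 libraries was deposited with peaks called from its own alignments on mm10. No source used here names the aligner, the callers or their thresholds. The deposited peak value is a signal, a height the authors normalised to depth. Heights of up to 100 steps, the only ones checked, are whole multiples (within 0.05 of a step) of 0.00597 in replicate 1 and 0.0107 in replicate 2, a ratio of 1.80 in depth if the scale is shared. The deposited intervals carry an FDR, a corrected p-value. The deposited footprint score is the same for every footprint and was not used to rank. Of 2 deposited peak lists per library the shorter was used, whose peaks each contain at least 1 base of FDR below 0.001. Distances run from the nearest base of a peak. Genes and starts came from GENCODE M21, sequences from the mm10 genome, and RefSeq promoters matched 28 of 37 genes. Full values go to genes with a shared peak or the most distal peaks, and the others are given more briefly. Motifs were matched on both strands. The genes, lists and motifs were chosen with earlier results of these data known. Counting code, tested on simulated data, found 200 of 200 planted promoter peaks and differed from bedtools 2.31.1 in 0 of 303 pairs. Python 3.11.15, numpy 2.4.6, pandas 2.3.3, pyfaidx 0.9.0.4 and matplotlib 3.10.9 were used. A few genes count in the totals but are not reported here by name.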

Additional observations from a re-analysis of the deposited data

How the results depend on the processing

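Of 68 alternative values, 47 lay within 1.5 times the value given. The longer peak lists, which add peaks by construction, gave 20 channel genes with a promoter peak in replicate 2 (59.7% of all genes) and 16 shared (53.5%), and 700, 180, 88 and 68 distal peaks in replicate 1, its equal-number list, replicate 2 and shared. Peaks above the median height of their list gave promoter peaks at 8 genes in the equal-number list, 3 in replicate 2 (39.0% of all genes) and 2 shared, and 217, 27, 20 and 19 distal peaks. Starts of protein-coding transcripts alone gave 53 distal peaks in the equal-number list, 24 in replicate 2 and 22 shared. A distal window of 25 kb gave 272 in replicate 1, 25 in replicate 2 and 22 shared. Leaving out a library turns a shared count into that of the other library, from 12 (replicate 2) to 32 (replicate 1) genes with a promoter peak and from 45 to 424 distal peaks. Channel genes stayed below the share of all genes in replicate 2 and among shared promoter peaks under each peak list, window and start set tried. No paired analysis was possible because there is a single group. With 2 libraries of unequal peak number, absence of a peak in replicate 2 does not show closed chromatin, whether depth or another difference between the libraries plays a part was not tested, and no value has an error beyond the difference between the libraries.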
